A study of Homo sapiens with 12 samples.

Results

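Genes that mark monocytes or the granules of maturing myeloid cells were followed in MOLM-13 cells, a human acute myeloid leukaemia line that carries a FLT3 internal tandem duplication. These 10 genes were chosen by name, MPO, LYZ, AZU1, CD14, CD68, CD33, CD86, FCER1G, TYROBP and SLAMF8, out of 57353 genes in the count table. The 12 RNA-seq libraries were made from poly-A RNA of cells kept for 15 hr with vehicle or with 3 nM quizartinib (AC220), an inhibitor of the FLT3 kinase. Each treatment was given in RPMI or in hBMSC-CM, the medium conditioned by the HS-5 human bone marrow stromal line and mixed with RPMI, so that the groups were vehicle in RPMI, quizartinib in RPMI, vehicle in hBMSC-CM and quizartinib in hBMSC-CM, with 3 replicates each. All groups were the same single line without stromal cells in the culture. The labels do not say whether replicates were separate cultures, though the study's reporting checklist calls all of its replicates biological. The p-values measure only the spread between these libraries of a single line.

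As background, granulocytes and monocytes arise from shared progenitors that first fill primary (azurophil) granules with antimicrobial proteins and proteases, and only later make secondary granules. Monocytes then display receptors for bacterial products and for antibodies, and many of these signal through small adaptors, DAP12 (the product of TYROBP) and the Fc receptor gamma chain (the product of FCER1G), whose ITAM motifs recruit the kinase SYK. FLT3 signalling drives the proliferation of myeloid progenitors.

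Library totals ran from 19966546 to 31546104 counts. Of the 10 genes, 8 passed the filter on low counts, which asked for a mean of at least 1 count and 1 CPM over the 12 libraries. CPM is the count scaled by library size, without TMM factors for this filter and with them for the levels given here. CD14 and CD68 did not pass. Of a list of 10 genes that identify the line as myeloid, 1 was under 1 CPM. Their sum was 1090 to 1110 CPM with vehicle and 1730 to 1740 CPM with quizartinib in RPMI. In hBMSC-CM it was 1090 to 1120 and 1390 to 1460 CPM. Of 18 stromal markers, 8 had no count in any library and 14 were under 1 CPM, and their sum was 10 to 10.6 CPM with vehicle and 18.1 to 22 CPM with quizartinib in RPMI, against 8.12 to 9.86 and 12.4 to 13.9 CPM in hBMSC-CM. Lymphoid markers summed to 27.1 to 42.6 CPM over the 12 libraries, and erythroid and megakaryocyte markers to 11.3 to 17.5 CPM. The share of mitochondrial counts was 0.683% to 0.79% with vehicle and 1.02% to 1.1% with quizartinib in RPMI, against 0.458% to 0.613% and 0.683% to 0.947% in hBMSC-CM. The part of these shifts in the results was not tested, and fewer cells of a kind and less RNA per cell cannot be told apart in bulk RNA.

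Upon FLT3 inhibition in RPMI the maturation markers did not move as one. CD86, TYROBP, AZU1, LYZ and FCER1G rose, whereas SLAMF8, MPO and CD33 fell, by the quasi-likelihood test of edgeR, with p-values adjusted by Benjamini-Hochberg over 12998 genes. These were 5 genes higher and 3 lower of the 8 tested, against 39.8% of all tested genes higher and 39.4% lower. In hBMSC-CM 5 genes rose and 2 fell, against 33.5% and 33.6% of all tested genes. The median log2 fold change of the 8 genes was 0.31 in RPMI and 0.61 in hBMSC-CM, beside 0.020 and 0.011 over all tested genes.

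**Figure D1:**
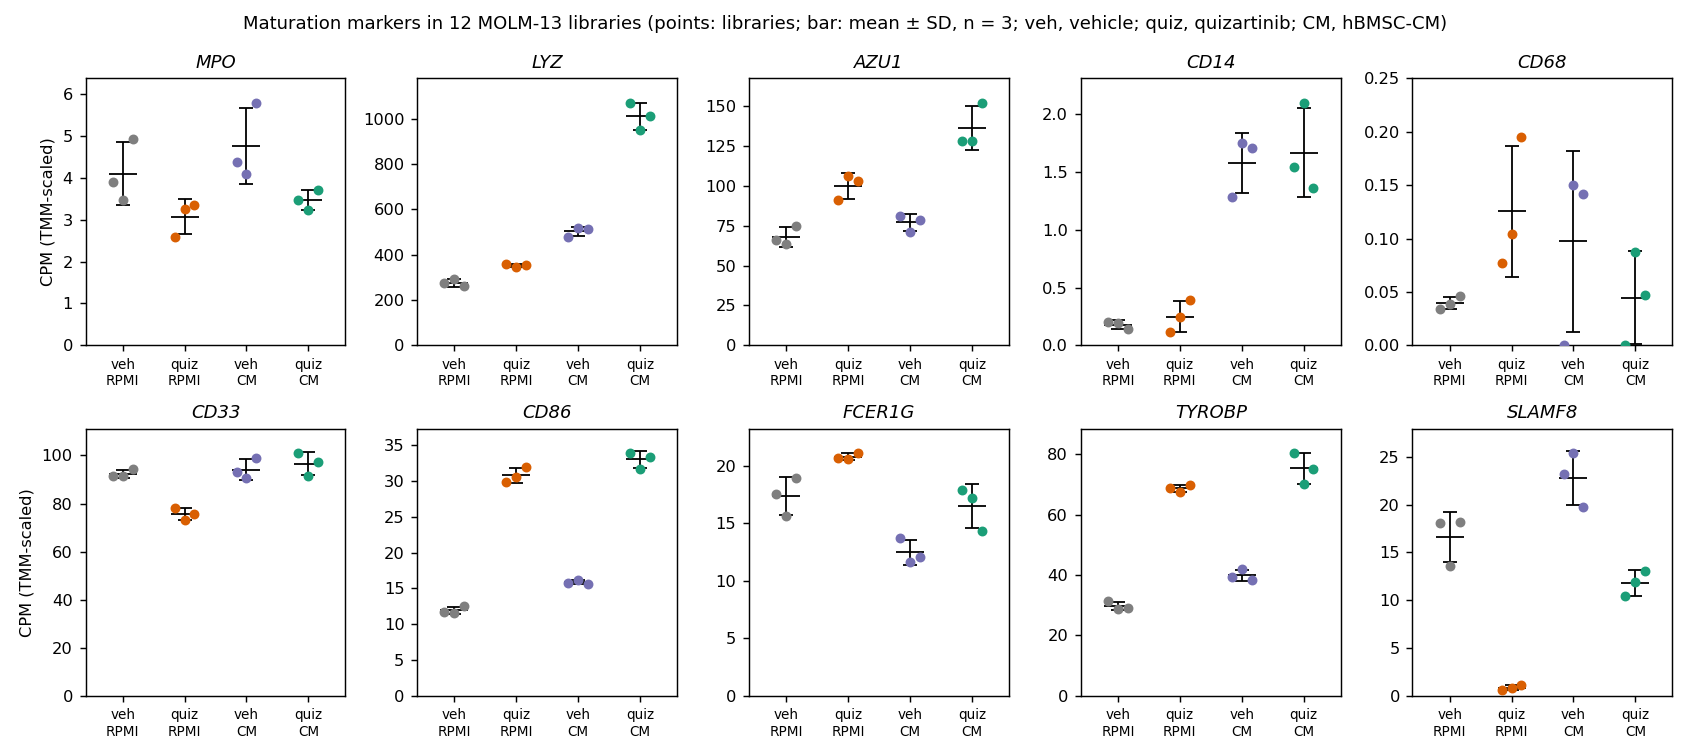
Level of each marker gene, in TMM-scaled CPM on a linear axis from 0, in the 12 libraries of the 4 groups (points), with the mean and SD of 3 replicates (bars). LYZ was highest with quizartinib in hBMSC-CM, at 949 to 1070 CPM, and SLAMF8 lowest with quizartinib in RPMI, at 0.579 to 1.12 CPM. CD68 stayed at 0 to 4 counts in each library.

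The promoters of TYROBP and CD86 are shown because each of these genes was among the 3 nearest of the other in expression profile, as described further on. The 250 bases before the RefSeq start (GRCh38.p14) are given, 5′ to 3′ on the gene's own strand, with capitals marking AGGAAG or its reverse complement, the core of sites for ETS factors such as PU.1, a regulator of myeloid genes. They lie at chr19:35908296-35908545 on the minus strand and chr3:122055112-122055361 on the plus strand.
TYROBP promoter: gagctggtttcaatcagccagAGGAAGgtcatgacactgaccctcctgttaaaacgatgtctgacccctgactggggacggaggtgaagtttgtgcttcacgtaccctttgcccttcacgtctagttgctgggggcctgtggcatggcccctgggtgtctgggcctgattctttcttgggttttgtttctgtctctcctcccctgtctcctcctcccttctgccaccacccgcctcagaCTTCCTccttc
CD86 promoter: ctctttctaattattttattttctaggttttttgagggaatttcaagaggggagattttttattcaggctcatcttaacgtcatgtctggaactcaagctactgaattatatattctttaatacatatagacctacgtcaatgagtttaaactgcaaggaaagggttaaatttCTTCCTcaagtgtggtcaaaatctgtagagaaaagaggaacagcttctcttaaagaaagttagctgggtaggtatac

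The RefSeq table held 9 start sites for 8 of the genes, with CD86 having a pair of them. AGGAAG was found on either strand in 6 of the 9 windows, those of TYROBP, FCER1G, CD33, CD14, CD68 and 1 of CD86, against 28.7% of 35116 windows of 250 bases. The longer GAGGAAGT, which contains AGGAAG, was found in TYROBP alone, against 2.17% of windows. TTGNNNAA (C/EBP) was in 5 windows, against 30.2%, and the looser TTNNNNAA, which contains it, in 6, against 50.2%. TGTGGT (RUNX) was in 3, against 11%, and TGANTCA (AP-1) in 3, against 6.57%. TTCNNNGAA (STAT) was in CD14 alone, against 6.57%, and CACGTG (E-box) in SLAMF8 alone, against 6.34%. The same 8 patterns had first been searched in 300 bases that ran past the start, where TGTGGT was in 5 windows against 13.1%, and the number of windows was as above for each of the other patterns. A match of letters is a description and not a bound site.

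LYZ encodes lysozyme, which cuts bacterial cell walls and is stored in granules of both monocytes and neutrophils. The gene lies at chr12:69348381-69354234 on the plus strand of GRCh38, with 4 exons in the canonical transcript. LYZ was at 273, 292 and 260 CPM with vehicle in RPMI and at 357, 345 and 355 CPM with quizartinib in RPMI. With hBMSC-CM the levels were 479, 516 and 513 CPM with vehicle and at 1070, 949 and 1010 CPM with quizartinib. No group overlapped another, and the order was vehicle in RPMI, quizartinib in RPMI, vehicle in hBMSC-CM and quizartinib in hBMSC-CM. The log2 fold change with quizartinib was 0.36 ± 0.0515 (SE) in RPMI, with an adjusted p of 1.75e-06 in edgeR's quasi-likelihood test, and 1.01 ± 0.0511 in hBMSC-CM, with an adjusted p of 4.22e-13. The response was therefore larger in hBMSC-CM by 0.65 on the log2 scale (95% interval 0.50 to 0.80), which passed the edgeR test of the difference with an adjusted p of 2.15e-07. From vehicle in RPMI to quizartinib in hBMSC-CM the level of LYZ was 3.67-fold higher. An antisense long noncoding gene covers 40.2% of the canonical exonic bases of LYZ, and since the counting is not stated to use strand, reads of the 2 genes cannot be told apart there.

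AZU1 encodes azurocidin, a primary granule protein of the serine protease family that lacks protease activity and kills bacteria. It opens a run of 4 genes on chromosome 19 that goes on with PRTN3 (proteinase 3), ELANE (neutrophil elastase) and CFD (complement factor D), with gaps of 8980, 2838 and 3205 bases between them. AZU1 itself spans chr19:825097-832018 on the plus strand, with 5 exons. AZU1 was at 65.7, 63.3 and 75 CPM with vehicle and at 90.9, 106 and 103 CPM with quizartinib in RPMI. In the conditioned medium the gene was at 81.2, 71.3 and 78.7 CPM with vehicle and at 128, 128 and 152 CPM with quizartinib. The vehicle groups of both media overlapped, and every quizartinib library lay above every vehicle library. AZU1 rose by 0.56 ± 0.0734 (SE) on the log2 scale in RPMI, with an adjusted p of 4.88e-07 in edgeR's quasi-likelihood test, and by 0.81 ± 0.0724 in hBMSC-CM, with an adjusted p of 2.82e-09. The difference between these responses was 0.26 (95% interval 0.04 to 0.47) with an adjusted p of 0.0468 in edgeR, and this call was lost in 11 of the alternative analyses, among them DESeq2 at an adjusted p of 0.0581.

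The neighbours of AZU1 did not all follow it. ELANE rose by 0.51 in RPMI and 0.93 in hBMSC-CM on the log2 scale, with edgeR adjusted p of 8.11e-07 and 9.91e-11, and CFD rose by 1.56 and 1.49, with 4.37e-14 and 3.59e-13. PRTN3 was at 93, 93.3 and 100 CPM with vehicle and at 55.3, 62.8 and 73 CPM with quizartinib in RPMI, but at 217, 204 and 219 CPM and at 265, 271 and 288 CPM in hBMSC-CM. PRTN3 thus fell in RPMI by 0.59 on the log2 scale and rose by 0.36 in hBMSC-CM, and the difference of 0.95 passed edgeR's test with an adjusted p of 3.48e-08. CTSG (cathepsin G), a granule protease encoded on chromosome 14, rose by 0.97 in both media, with edgeR adjusted p of 4.47e-13 in RPMI and 2.29e-12 in hBMSC-CM.

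**Figure D2:**
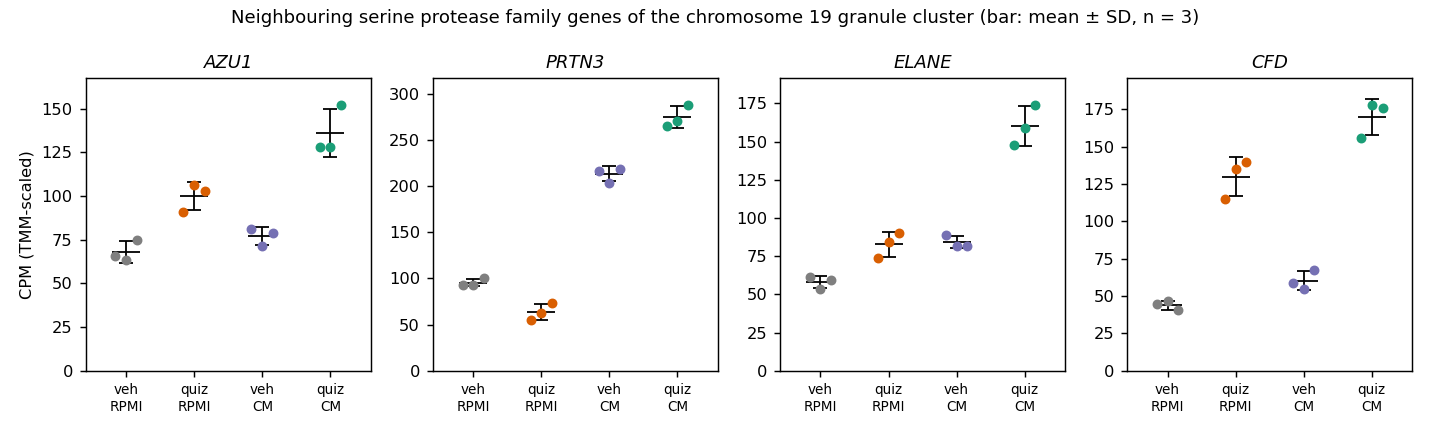
Levels of AZU1 and its 3 neighbours on chromosome 19, in TMM-scaled CPM on linear axes from 0, by group, with points for libraries and bars for the mean and SD of 3 replicates. PRTN3 is the gene of the run that was lower with quizartinib than with vehicle in RPMI, at means of 63.7 and 95.6 CPM.

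MPO encodes myeloperoxidase, the oxidant-producing enzyme that defines primary granules. The gene lies at chr17:58269855-58280935 on the minus strand, with 12 exons. MPO was at 3.89, 3.47 and 4.93 CPM with vehicle and at 2.59, 3.25 and 3.36 CPM with quizartinib in RPMI. The hBMSC-CM libraries stood at 4.37, 4.1 and 5.79 CPM with vehicle and at 3.47, 3.24 and 3.7 CPM with quizartinib. The groups did not overlap within a medium, although each rests on 67 to 133 counts a library. MPO fell in RPMI by 0.41 on the log2 scale (SE 0.16) with an edgeR adjusted p of 0.0236 and by 0.45 in hBMSC-CM (SE 0.155) with 0.0152. The call in RPMI was lost without vehicle replicate 3 (log2 fold change -0.27, adjusted p 0.149) or without quizartinib replicate 1 (-0.29, 0.136) in edgeR. Upper-quartile factors (-0.30, adjusted p 0.0874) and library size only (-0.32, 0.075) also ended it in edgeR. The call in hBMSC-CM was lost without vehicle replicate 3 (-0.29, 0.11) or without quizartinib replicate 2 (-0.40, 0.0514), and with library size only (-0.35, 0.0556), in edgeR. Per kilobase of transcript MPO stood at 0.953 to 1.48 CPM in the group means, against 75 to 150 CPM per kilobase for AZU1 and 185 to 677 for LYZ.

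CD86 encodes B7-2, a costimulatory ligand for CD28 and CTLA4 on T cells that monocytes and dendritic cells display. It spans chr3:122055362-122121139 on the plus strand, with 7 exons. CD86 was at 11.7, 11.6 and 12.5 CPM with vehicle and at 29.9, 30.5 and 31.9 CPM with quizartinib in RPMI. In hBMSC-CM it was at 15.8, 16.2 and 15.6 CPM with vehicle and at 33.9, 31.7 and 33.4 CPM with quizartinib. Vehicle in RPMI was lowest and vehicle in hBMSC-CM next, whereas the quizartinib groups of both media overlapped. CD86 rose 2.58-fold in RPMI (log2 1.37 ± 0.062 SE) with an edgeR adjusted p of 1e-14 and 2.08-fold in hBMSC-CM (log2 1.06 ± 0.0601) with 2.31e-12. The response was smaller in hBMSC-CM by 0.31 on the log2 scale, an edgeR difference of -0.31 (95% interval -0.49 to -0.13) with an adjusted p of 0.00676, a call that was lost when low counts were not filtered (-0.24, adjusted p 0.114). CD80, the other ligand of CD28, had a mean of 0.0976 CPM and was not tested.

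TYROBP encodes the adaptor DAP12, which carries signals of activating receptors of myeloid and natural killer cells. It spans chr19:35904401-35908295 on the minus strand, with 5 exons. TYROBP was at 31.4, 28.6 and 29.2 CPM with vehicle and at 68.9, 67.6 and 69.8 CPM with quizartinib in RPMI. The libraries in hBMSC-CM were at 39.2, 41.9 and 38.4 CPM with vehicle and at 80.4, 70.3 and 75.2 CPM with quizartinib. No group overlapped another, and the order was that of CD86. TYROBP rose 2.31-fold in RPMI (log2 1.21 ± 0.0568 SE) with an edgeR adjusted p of 1.83e-14 and 1.89-fold in hBMSC-CM (log2 0.92 ± 0.0555) with 5.98e-12. The edgeR difference between the responses was -0.29 (95% interval -0.45 to -0.12), with an adjusted p of 0.00559.

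CD86 and TYROBP were alike in profile over the 12 libraries. Likeness was taken as the root mean square distance between centred log2 CPM profiles, among genes averaging 5 CPM or more. Among the 3 genes nearest to CD86 were TYROBP (distance 0.0881, Pearson's r 0.995) and SNX20 (0.0908, r 0.992). Among the 3 nearest to TYROBP were CD86 and CXCR4 (0.0905, r 0.987). These distances are descriptions over libraries that share groups and say nothing of shared control. LYZ was nearest to KSR1 (distance 0.0752), METTL7B (0.107) and ANXA1 (0.126), and SLAMF8 to HPDL (0.196), SYNGR3 (0.313) and BEND3 (0.352). AZU1 was nearest to TRABD (0.0931), FOSL2 (0.107) and PLPPR3 (0.113), and CD33 to ZFYVE27 (0.0468), ETNK1 (0.049) and GAS5 (0.0505). FCER1G was nearest to ARHGAP42 (0.103), ZBED5 (0.105) and ZNF808 (0.106), and MPO to PPP1R16A (0.119), ATP6V0B (0.127) and ROMO1 (0.129).

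FCER1G encodes the gamma chain shared by Fc receptors for IgE and IgG. It spans chr1:161215234-161220699 on the plus strand, with 5 exons. FCER1G was at 17.5, 15.6 and 18.9 CPM with vehicle and at 20.7, 20.6 and 21.1 CPM with quizartinib in RPMI. In hBMSC-CM it was at 13.7, 11.6 and 12.1 CPM with vehicle and at 17.9, 17.2 and 14.3 CPM with quizartinib. Among the 8 tested marker genes, FCER1G was the only one that hBMSC-CM lowered relative to RPMI, and it did so with either treatment. Its log2 fold change with quizartinib was 0.27 ± 0.0844 (SE) in RPMI with an edgeR adjusted p of 0.00666 and 0.40 ± 0.0914 in hBMSC-CM with 0.000634. The call in RPMI was lost in edgeR when low counts were not filtered (0.17, adjusted p 0.0714). The difference between the responses did not pass the edgeR test at 0.13 (95% interval -0.13 to 0.39), with an adjusted p of 0.413.

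CD33 encodes Siglec-3, an inhibitory receptor for sialic acids on myeloid cells. It spans chr19:51225064-51243860 on the plus strand, with 7 exons. CD33 was at 91.4, 91.5 and 94.2 CPM with vehicle and at 78.1, 73.2 and 75.5 CPM with quizartinib in RPMI. In the conditioned medium it stood at 93.1, 90.5 and 98.8 CPM with vehicle and at 101, 91.3 and 97.4 CPM with quizartinib. Quizartinib in RPMI lay below all other libraries, and the other groups overlapped. CD33 fell in RPMI by 0.29 on the log2 scale (SE 0.047) with an edgeR adjusted p of 9.23e-06. With the conditioned medium the log2 fold change was 0.04 (95% interval -0.06 to 0.13) with an edgeR adjusted p of 0.503. The difference of 0.32 (95% interval 0.19 to 0.46) passed the edgeR test with an adjusted p of 0.000398.

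SLAMF8 encodes a SLAM-family receptor of macrophages that restrains their NADPH oxidase. It spans chr1:159826811-159837492 on the plus strand, with 5 exons. SLAMF8 was at 18.1, 13.6 and 18.2 CPM with vehicle in RPMI and at 0.579, 0.829 and 1.12 CPM with quizartinib in RPMI, the latter being 15, 24 and 23 counts. The hBMSC-CM values were 23.2, 25.4 and 19.8 CPM with vehicle and at 10.4, 11.9 and 13.1 CPM with quizartinib. No group overlapped another, and quizartinib in RPMI stood far below the rest. SLAMF8 fell 20.1-fold in RPMI (log2 -4.33 ± 0.19 SE) with an edgeR adjusted p of 5.65e-15 and 1.95-fold in hBMSC-CM (log2 -0.96 ± 0.115) with 2.56e-07. The difference between the responses was 3.37 on the log2 scale (95% interval 2.86 to 3.87), with an adjusted p of 2.51e-10 in edgeR. A protein-coding gene on the opposite strand, ENSG00000256029, covers 74.1% of the canonical exonic bases of SLAMF8, and the antisense SNHG28 covers 35.3% and was listed at 0 in all 12 libraries. Without strand in the counting, reads of SLAMF8 and of its antisense partner cannot be told apart.

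**Figure D3:**
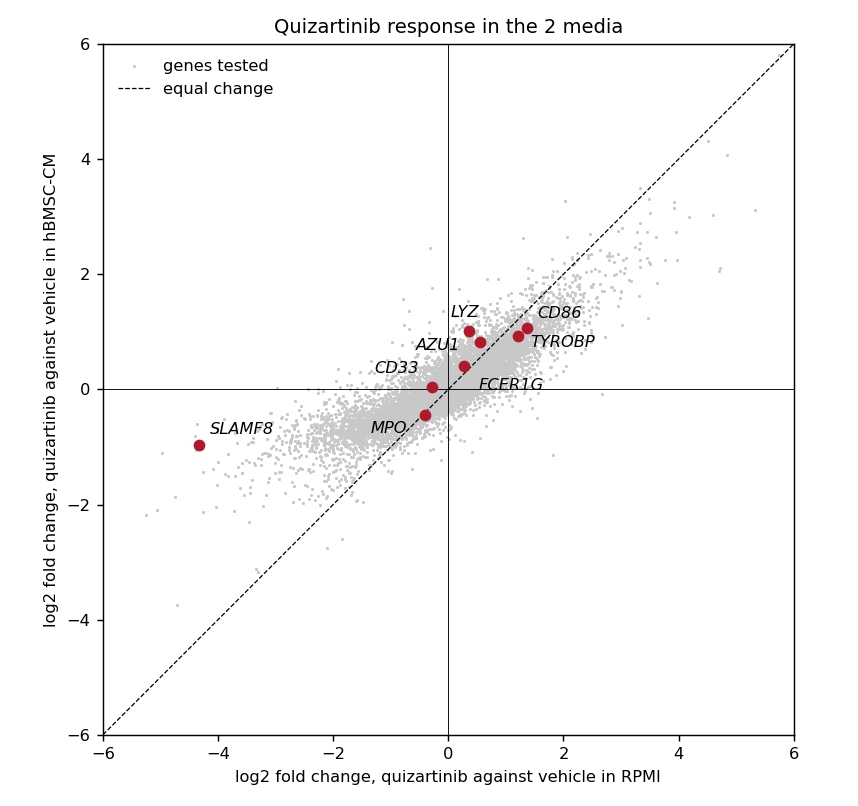
Log2 fold change with quizartinib against vehicle in hBMSC-CM (vertical) against that in RPMI (horizontal) for the 12998 genes tested (grey) and the 8 marker genes among them (red), with a dashed line of equal change. SLAMF8 lies far above the line at -4.33 in RPMI and -0.96 in hBMSC-CM, LYZ above it at 0.36 and 1.01, and CD86 and TYROBP below it.

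CD14 encodes the co-receptor for bacterial lipopolysaccharide and is the surface marker by which classical monocytes are recognised. It spans chr5:140631728-140633700 on the minus strand, with 2 exons in the canonical transcript. CD14 was at 0.205, 0.195 and 0.138 CPM with vehicle and at 0.116, 0.242 and 0.389 CPM with quizartinib in RPMI. In hBMSC-CM it was at 1.28, 1.75 and 1.71 CPM with vehicle and at 1.54, 2.1 and 1.36 CPM with quizartinib. The groups separated by medium, with every library in hBMSC-CM above every library in RPMI, and overlapped by treatment. Summed over 3 libraries, these were 14 and 18 counts in RPMI and 110 and 121 counts in hBMSC-CM, so that CD14 stayed at low abundance throughout. In the fit of all 30572 genes with a count, CD14 was 8.32-fold higher in hBMSC-CM with vehicle (log2 3.06 ± 0.345 SE) with an edgeR adjusted p of 1.05e-16, and 7.18-fold higher with quizartinib (2.84 ± 0.321) with 8.72e-18. In that fit 13.5% and 33.0% of genes were called in either direction in these comparisons. Quizartinib gave log2 fold changes for CD14 of 0.28 (95% interval -0.73 to 1.29) in RPMI and 0.07 (-0.36 to 0.50) in hBMSC-CM, neither of which passed the edgeR test (adjusted p 0.732 and 0.928), where 40.1% and 30.4% of genes were called.

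CD68 encodes a lysosomal glycoprotein of macrophages. It spans chr17:7579491-7582111 on the plus strand, with 6 exons. CD68 had 21 counts over all 12 libraries and between 0 and 4 in any of them, which is at or near the limit of 3 counts that a count of 0 allows. No change of CD68 was detectable at this depth. A long noncoding gene on the same strand shares 94.9% of the canonical exonic bases of CD68, so that reads of the pair cannot be told apart there and the low count of CD68 is uncertain.

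The conditioned medium by itself was compared in the vehicle groups. Relative to RPMI, hBMSC-CM raised LYZ, CD86, TYROBP and SLAMF8 and lowered FCER1G, which is 4 genes higher and 1 lower of 8 tested, against 16.6% and 15.5% of all tested genes. The log2 fold changes were 0.87 for LYZ, 0.41 for CD86, 0.42 for TYROBP, 0.46 for SLAMF8 and -0.46 for FCER1G, with edgeR adjusted p of 4.72e-11, 8.36e-05, 1.43e-05, 0.00297 and 0.00054. AZU1 was 0.19 higher on the log2 scale (95% interval 0.03 to 0.34) and did not pass in edgeR, with an adjusted p of 0.062, though it did in some alternatives. MPO at 0.22 and CD33 at 0.03 did not pass either.

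With quizartinib present, hBMSC-CM raised 5 genes and lowered 1 relative to RPMI, against 35.9% and 33.9% of all tested genes. SLAMF8 was 14.2-fold higher (log2 3.82 ± 0.202 SE) with an edgeR adjusted p of 3.52e-13, LYZ 2.86-fold higher, AZU1 1.36-fold higher and CD33 1.28-fold higher, while FCER1G was lower by -0.33 on the log2 scale. TYROBP was 1.1-fold higher with an edgeR adjusted p of 0.031, a call that was lost in 8 of the alternative analyses. CD86 did not pass the edgeR test at a log2 fold change of 0.10 (95% interval -0.01 to 0.22) and an adjusted p of 0.0989.

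Quizartinib in hBMSC-CM was also set against vehicle in RPMI, and here 4 genes were higher and 1 was lower, against 30.6% and 31.4% of all tested genes. The log2 fold changes were 1.87 for LYZ, 1.47 for CD86, 1.34 for TYROBP, 1.00 for AZU1 and -0.50 for SLAMF8. MPO, CD33 and FCER1G did not pass the edgeR test, with 95% intervals of -0.56 to 0.10, -0.03 to 0.16 and -0.24 to 0.12. These comparisons share control libraries, so that their values are given side by side only. In the test of the interaction, in which a positive value means a more positive quizartinib response in hBMSC-CM, 4 genes were positive and 2 negative of the 8, against 26.4% and 18.8% of all tested genes.

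**Figure D4:**
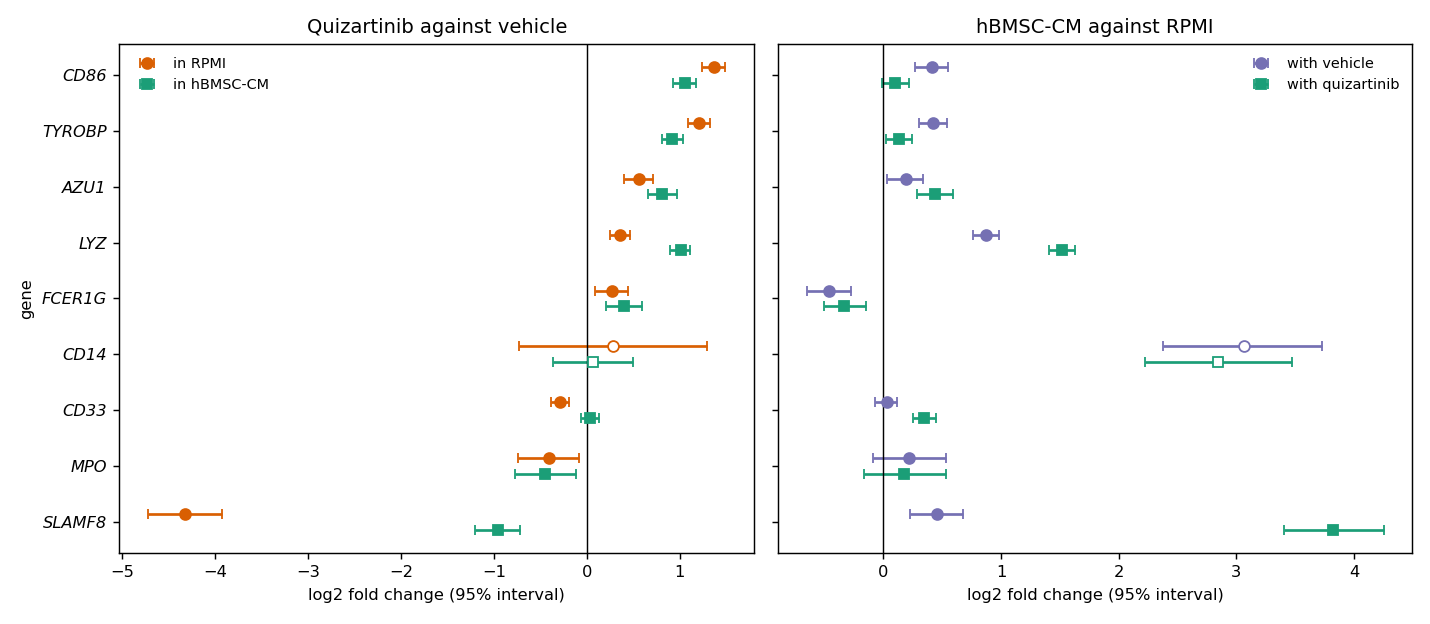
Log2 fold changes with 95% intervals for quizartinib against vehicle in both media (left) and hBMSC-CM against RPMI with both treatments (right), for 9 of the marker genes, with open symbols for CD14, which was fitted without the filter on low counts. CD68 is left out for its low counts. SLAMF8 lies farthest from 0 in both panels, at -4.33 with quizartinib in RPMI and at 3.82 for hBMSC-CM with quizartinib, and CD14 stands at 3.06 and 2.84 by medium.

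Genes related to the markers by function were read from lists. Their counts are to be read against 39.8% of all tested genes higher and 39.4% lower in RPMI upon FLT3 inhibition, with 33.5% and 33.6% in hBMSC-CM, and nothing particular to a list is drawn from them. Of 20 primary granule genes, 15 were tested, and 7 rose and 3 fell in RPMI, with 11 and 1 in hBMSC-CM, at median log2 fold changes of 0.24 and 0.65. CFD, PLAC8 (1.07) and SERPINB1 (1.06) rose most in RPMI, and SRGN (-0.72), which encodes the granule proteoglycan serglycin, PRTN3 (-0.59) and CTSC (-0.48), which encodes the protease that activates granule proteases, fell most, on the log2 scale. SRGN had a log2 fold change of 0.01 in hBMSC-CM. Of 21 secondary and tertiary granule genes, 8 had no count in any library and 5 were tested. Upon FLT3 inhibition in RPMI, 3 of them were higher and 1 lower. FPR1 is 1 of the 3, at means of 0.357 and 0.651 CPM and an edgeR adjusted p of 0.0464. HP and FPR1, with 0.216 to 0.651 CPM in the RPMI group means, passed the filter only through the hBMSC-CM groups. HP did so through quizartinib in hBMSC-CM, at a mean of 3.26 CPM against 0.949 CPM with vehicle. For this list no count by medium or with quizartinib in hBMSC-CM is therefore given. CHI3L1 (log2 fold change 0.90 in RPMI, 0.74 in hBMSC-CM) and CYBB (0.78, 0.90), the catalytic subunit of the phagocyte oxidase, were the members that rose most with quizartinib in RPMI, and CYBA, which encodes the partner subunit of CYBB, was at -0.22 in RPMI, which passed, and at -0.13 in hBMSC-CM, which did not.

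Of 51 monocyte and macrophage genes, 40 were tested. In RPMI 29 rose and 10 fell upon FLT3 inhibition, beside 39.8% and 39.4% of all tested genes. In hBMSC-CM 32 rose and 1 fell, beside 33.5% and 33.6%. The median log2 fold changes were 0.67 and 0.73. CD36, a scavenger receptor, rose by 3.28 on the log2 scale in RPMI and by 2.74 in hBMSC-CM, CSF1R, the receptor for macrophage colony-stimulating factor, by 2.01 and 1.51, and MS4A6A by 1.35 and 1.64. CSF1R was at 27.4, 20.4 and 25.6 CPM with vehicle and at 95.5, 102 and 98.5 CPM with quizartinib in RPMI, without overlap. ITGAM, which encodes the integrin CD11b, fell by 1.01 in RPMI, FCGR1A, a high-affinity Fc receptor, by 0.95 and TLR2 by 0.81. In hBMSC-CM ITGAM had a log2 fold change of 0.00 and FCGR1A of -0.20, neither passing the edgeR test, and TLR2 fell by 0.11.

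Of 35 genes that work with the adaptors, as receptors, kinases or phosphatases, 22 were tested. In RPMI 11 were higher and 9 lower, beside 39.8% and 39.4% of all tested genes. In hBMSC-CM 12 were higher and 4 lower, beside 33.5% and 33.6%. TREM1, counted as lower in both media, averaged 0.734 and 0.0799 CPM in RPMI and 2.73 and 0.936 CPM in hBMSC-CM. It passed the filter on low counts only through vehicle in hBMSC-CM. LILRA5, counted as higher in hBMSC-CM (0.43), passed it only through the hBMSC-CM groups. These counts therefore depend in part on the filter. FGR rose by 0.94 and 0.44 on the log2 scale, TREM2, a receptor that pairs with DAP12, by 0.69 and 0.47, and SYK by 0.30 and 0.19. LYN had log2 fold changes of -0.18, which passed, and 0.06, which did not. PTPN6, which encodes the inhibitory phosphatase SHP-1, was at 325, 308 and 317 CPM with vehicle and at 71.6, 74.6 and 74.2 CPM with quizartinib in RPMI, and at 332, 332 and 318 CPM and at 227, 220 and 240 CPM in hBMSC-CM. The log2 fold change of PTPN6 was -2.11 in RPMI and -0.52 in hBMSC-CM, and the difference of 1.59 passed the edgeR test with an adjusted p of 1.48e-14. SIRPB1, which also pairs with DAP12, fell by 1.78 and 0.44, and LAT2 by 1.12 and 0.72.

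Of 20 costimulatory and SLAM-family genes other than CD86 and SLAMF8, 10 were tested, with 6 higher and 2 lower in RPMI and 9 higher and 1 lower in hBMSC-CM. For this list and for the Siglec and stem and progenitor genes below, the shares of all tested genes were the same as above. They were 39.8% higher and 39.4% lower in RPMI, and 33.5% and 33.6% in hBMSC-CM. CD84 rose by 2.05 and 1.46 on the log2 scale, CD244 by 1.56 and 1.16 and LY9 by 1.11 and 0.53, all receptors of the SLAM family like SLAMF8, which fell. ICOSLG fell by 0.88 in RPMI and rose by 0.29 in hBMSC-CM, and ICAM1 fell by 0.38 and 0.20. Of 14 Siglec genes 4 were tested, with 2 higher and 2 lower in RPMI and 2 and 1 in hBMSC-CM, SIGLEC7 at -0.70 in RPMI and -0.09 in hBMSC-CM, and SIGLEC10 at 0.23 and 0.26. Of 25 stem and progenitor genes 11 were tested, with 4 higher and 4 lower in RPMI and 4 and 3 in hBMSC-CM. FLT3 itself rose by 1.11 and 0.47 on the log2 scale, CD38 by 0.99 and 0.39 and MEIS1 by 0.69 and 0.53. ANGPT1 fell by 1.68 and 1.59 and GFI1 by 0.17 and 0.33, while SOX4 fell by 0.52 in RPMI and was at -0.03 in hBMSC-CM, which did not pass. Of the 10 genes that identify the line as myeloid, FLT3 and CD33 included, 9 were tested. In RPMI 6 were higher and 3 lower, beside 39.8% and 39.4% of all tested genes. In hBMSC-CM 5 were higher and 1 lower, beside 33.5% and 33.6%. Among them IL3RA rose by 1.43 and 0.93 and CSF3R by 1.24 and 1.13. CEBPA fell by 0.41 and 0.12, and FUT4 fell by 0.41 in RPMI and was at -0.03 in hBMSC-CM.

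By medium with vehicle, where 16.6% of all tested genes were higher in hBMSC-CM and 15.5% lower, 11 primary granule genes were higher and 0 lower, against 17 and 10 monocyte and macrophage genes, 6 and 6 adaptor partners, 6 and 2 costimulatory and SLAM-family genes, 2 and 1 Siglec genes and 5 and 3 stem and progenitor genes. By medium with quizartinib, beside 35.9% and 33.9% of all tested genes, these were 10 and 3, 20 and 10, 14 and 4, 5 and 3, 2 and 1, and 4 and 4 genes in the same order. For quizartinib in hBMSC-CM against vehicle in RPMI, beside 30.6% and 31.4%, they were 13 and 0, 32 and 4, 10 and 7, 10 and 0, 2 and 1, and 4 and 4. For the interaction, beside 26.4% positive and 18.8% negative, they were 8 and 3, 17 and 11, 10 and 4, 1 and 4, 1 and 0, and 1 and 5. Some genes counted as higher by medium passed the filter only through the hBMSC-CM groups. These were S100A8 (0.498 and 1.23 CPM in the RPMI group means), LILRA5 (0.694 and 0.709 CPM) and TREM1 (0.734 and 0.0799 CPM). MSR1 passed it only through quizartinib in RPMI, at 3.52 CPM, and is counted as higher with quizartinib there and as lower by medium. The counts by medium therefore depend in part on the filter.

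**Figure D5:**
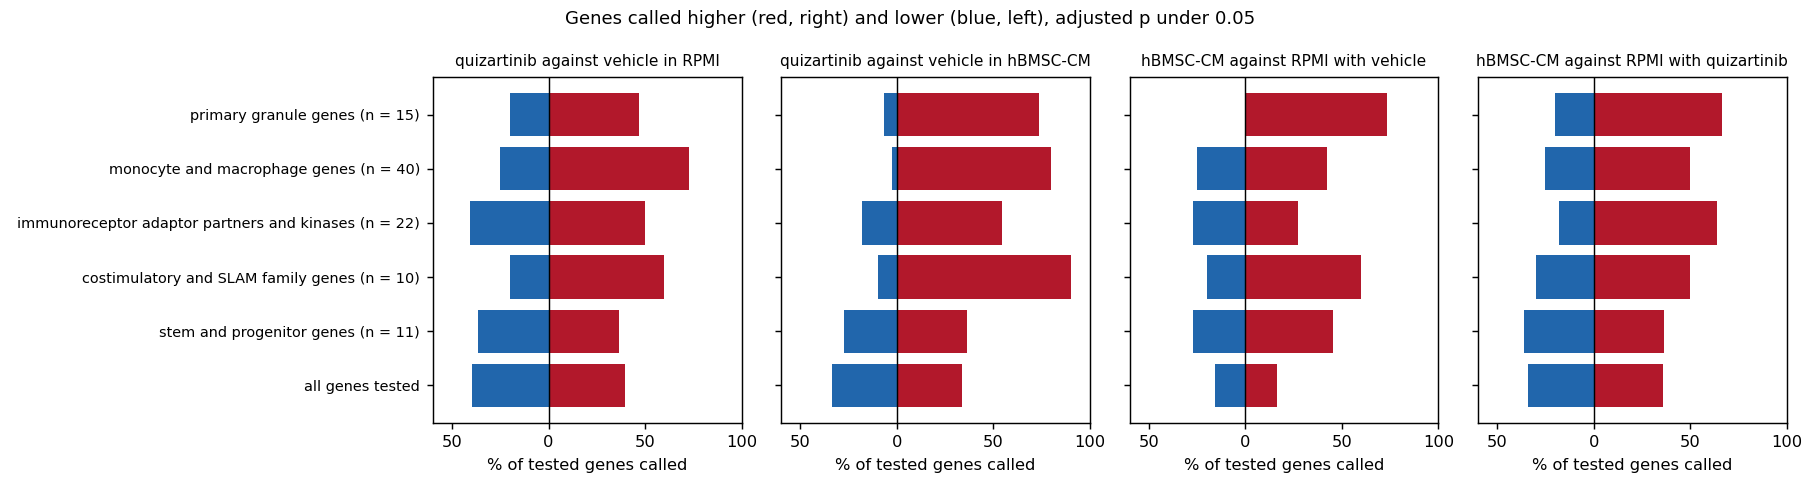
Share of tested genes called higher (red, to the right) and lower (blue, to the left) at an adjusted p under 0.05, in percent, for 5 lists and for all tested genes, in 4 comparisons. Monocyte and macrophage genes were called higher with quizartinib in 29 of 40 cases in RPMI and 32 of 40 in hBMSC-CM, beside 39.8% and 33.5% of all tested genes. MSR1, among the 29, passed the filter on low counts only through quizartinib in RPMI. S100A8, LILRA5 and TREM1, among those higher by medium, passed it only through the hBMSC-CM groups. S100A8 is also among those higher with quizartinib in both media, and LILRA5 in hBMSC-CM. TREM1 is also among those lower with quizartinib in both media, and passed only through vehicle in hBMSC-CM.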

How the data were processed

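RNA was measured in 12 MOLM-13 libraries, 3 in each of 4 groups taken from the sample labels. The authors trimmed reads, aligned them to hg38 with STAR 2.6.0a and deposited raw counts per gene as whole numbers, without normalization. Identifiers that share a gene name were added up by the authors, and the use of strand in that counting is not given in the sources used here.

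Genes with a mean of at least 1 count and 1 CPM were kept (12998 of 30572 with a count, holding 99.68% to 99.81% of counts). After TMM scaling, the quasi-likelihood functions glmQLFit and glmQLFTest of edgeR 4.0.16 (R 4.3.3) were run, in 1 model of 4 group means, with two-sided p-values, Benjamini-Hochberg adjustment over all tested genes and a threshold of 0.05. SE was the log2 fold change divided by the root of F. The limit that a count of 0 allows (3 counts, 0.0951 to 0.15 CPM by library) covers counting error only. CD14 and CD68 were fitted without the filter. The tests were also run on simulated data in which a small part of the genes changed with quizartinib in RPMI. Only quizartinib against vehicle in RPMI was scored there, so that the other comparisons and the interaction were not examined.

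All 10 marker genes are named. From each related list, up to 3 genes per direction were named by their log2 fold change in RPMI among called genes of at least 5 CPM, with ELANE, PRTN3, CTSG, CFD, ITGAM, CSF1R, SYK, LYN and CD80 added. A single list gene that the rule selects is not reported here, and lymphoid, stromal and erythroid lists are given by their sums only. Marker genes and lists were chosen with earlier results of these data known. Likewise the promoter windows were shortened to 250 bases, to leave out sequence past the RefSeq start, after the search of 300 bases had been seen. By the GENCODE spans, the windows of AZU1, CD14 and the other start of CD86 still lie within the gene. Those of CD68, FCER1G, SLAMF8 and CD33 run past the GENCODE start, so that some matches may lie in transcribed sequence.

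The alternatives were DESeq2 1.42.0, limma-voom (limma 3.58.1), other scalings and filters, fits of only the groups compared, a replicate block and each library left out. Replicates differed beyond sampling noise, by a chi-square of 2.66 to 10.5 per gene over 12 pairs. Gene positions come from GENCODE on GRCh38 and promoters from RefSeq (GRCh38.p14).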

Additional observations from a re-analysis of the deposited data

Results flagged for a closer look

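The response to quizartinib differed between RPMI and hBMSC-CM for 6 of the 8 marker genes tested, in edgeR's quasi-likelihood test of the interaction with Benjamini-Hochberg adjustment, as it did for 26.4% of all tested genes in the positive and 18.8% in the negative direction. The difference of log2 responses, hBMSC-CM minus RPMI, was 3.37 for SLAMF8, 0.65 for LYZ, 0.32 for CD33 and 0.26 for AZU1. It was -0.31 for CD86 and -0.29 for TYROBP. The values for AZU1 and CD86 lost the call under some of the alternatives.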

How the results depend on the processing

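Over the alternatives no result for a marker gene that passed the test reversed its direction, and the number of marker genes called ranged from 7 to 8 with quizartinib in RPMI, 6 to 8 in hBMSC-CM, 5 to 7 and 5 to 8 for the medium with vehicle and with quizartinib, and 5 to 6 for the interaction. These ranges include the fit without the filter, in which all 10 marker genes were tested, CD14 and CD68 among them. They also include the fit at a mean CPM of at least 10, which left out MPO. Of 1218 alternative fold changes, 28 lost and 12 gained a call. MPO, AZU1, TYROBP, FCER1G, CD33 and CD86 were concerned, and the cause was not tested. CD33 gained a call with quizartinib in hBMSC-CM with upper-quartile factors (0.12) and with library size only (0.14). Without TMM factors the share of called genes that were higher moved from 50% to 62.7% with quizartinib in hBMSC-CM and from 49.3% to 62% for quizartinib in hBMSC-CM against vehicle in RPMI, and without the filter it moved from 58.5% to 70.6% for the interaction. Upper-quartile factors moved the median of all genes by 0.11 (log2) for quizartinib in RPMI, and the share higher from 50% to 60% in hBMSC-CM. No shared effect of replicate number was seen. Of 18 pairs of the same number, 0 had a correlation over 0.1 (range -0.228 to 0.0979), and in 4 the library of the same number correlated best. With deviations taken from means of 3 libraries, this cannot show whether libraries of the same number were set up together. With the replicate block 8, 7, 6, 6, 5 and 6 marker genes were called in the 6 comparisons, and 10216, 8614, 3938, 8938, 7927 and 5671 of all genes, against 10299, 8722, 4171, 9069, 8060 and 5873 without it. Depth limits CD68 and CD14, and MPO and SLAMF8 with quizartinib in RPMI rest on few counts.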

Other observations

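Some monocyte and granule genes outside the naming rule were chosen here after their values were seen, because they were higher in hBMSC-CM, as CD14 was. Of the 40 monocyte and macrophage genes tested, 17 were higher, 10 lower and 13 not called by medium with vehicle. MSR1 (-1.72), CX3CR1 (-1.20) and GPNMB (-0.98) were among the lower ones, as log2 fold changes. MSR1 averaged only 0.801 CPM with vehicle in RPMI and 0.238 CPM with vehicle in hBMSC-CM. It passed the filter through quizartinib in RPMI, at 3.52 CPM. S100A9, a subunit of calprotectin, had means of 4.73 CPM with vehicle and 3.23 CPM with quizartinib in RPMI, and of 24.9 and 41.7 CPM in hBMSC-CM. Its log2 fold change by medium was 2.38 with vehicle and 3.70 with quizartinib. For S100A9, S100A8 and FPR1 no p-value is given, because they were chosen for being higher in hBMSC-CM. S100A8, its partner, was higher by medium by 2.51 and 2.66, and also rose with quizartinib by 1.28 in RPMI and 1.43 in hBMSC-CM, and FPR1, the receptor for bacterial formyl peptides, was higher by medium by 3.47 and 3.44, on the log2 scale. S100A9 fell by 0.57 with quizartinib in RPMI and rose by 0.75 in hBMSC-CM, a difference of 1.33. S100A8 and FPR1 averaged 0.357 to 1.23 CPM in the RPMI groups, and passed the filter on low counts through the hBMSC-CM groups.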
